A study of Homo sapiens and Mus musculus with 56 samples.

Results

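The genes described here make cholesterol and fatty acids or control that synthesis. By a fixed list of symbols, 31 genes were taken: 18 enzymes of sterol synthesis, 6 enzymes of fatty acid synthesis, 4 regulators of the SREBP transcription factors, and 3 further genes tied to those factors (STARD4, LPIN1 and TMEM97). They belong to 19775 human and 18193 mouse genes that had at least 1 probe set annotated to that symbol alone. On the human arrays 28 of the 31 were measured, and all 28 passed the filter on dim probe sets in each line, while FDFT1, CYP51A1 and FADS1 were not analysed there (the probe sets of CYP51A1 and FADS1 carry a further symbol). On the mouse arrays 30 of the 31 were measured and passed, and Acat2 was not analysed.

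The series holds 56 Affymetrix arrays in 20 groups, of which 44 arrays are human and 12 are mouse. EPZ004777 inhibits DOT1L, the methyltransferase of histone H3 lysine 79, and MI-2-2 blocks the binding of menin to KMT2A (MLL). RS4;11 and SEM, lines of B-precursor leukaemia, carry KMT2A-AFF1, whereas KMT2A is not fused in REH, a further B-precursor line. All 3 are human. These lines were kept for 6 days in DMSO, 3 µM EPZ004777, 10 µM MI-2-2 or both compounds. MOLM-13, grown from a human acute myeloid leukaemia, carries KMT2A-MLLT3 (MLL-AF9), and the mouse cells were leukaemic cells transformed with MLL-AF9, a primary culture kept with interleukin-6, interleukin-3 and stem cell factor. Both were kept for 4 days in DMSO, 3 µM EPZ004777, 3 µM MI-2-2 or both compounds. The combination was taken to use each compound at its single dose. All cultures grew in fetal calf serum, a source of outside lipid, and every treatment group of a model was compared with the same DMSO arrays. Groups held 3 arrays, except for the RS4;11 DMSO group and the SEM DMSO, MI-2-2 and combination groups, which held 2. Values are log2 signals, changes are differences of log2 signal ± standard error from limma, and genes were called where the p, adjusted by Benjamini-Hochberg over all genes of that fit, was under 0.05. A single gene's arrays may also read transcripts of a relative: on the human arrays ACAT2, PMVK, MVD, IDI1, TM7SF2, HSD17B7, SC5D, DHCR7, ACLY, FASN and FADS2 were read on probe sets that can bind further transcripts, as were MVK in RS4;11 and REH, and Hmgcs1, Pmvk, Mvd, Fdft1, Lss, Msmo1, Hsd17b7, Acly and Lpin1 in the mouse.

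Array medians lay between 5.54 and 5.66 in RS4;11, SEM and REH, between 6.18 and 6.25 in MOLM-13 and between 6.13 and 6.25 in the mouse cells, so each model was tested within itself. Myeloid markers stood high in the DMSO arrays of MOLM-13 (ELANE 13.1 to 13.2, LYZ 13.8 to 14.0) and the mouse cells (Elane 13.0 to 13.3), where the B-cell factor EBF1 was at 4.46 to 5.22. In RS4;11, SEM and REH EBF1 was at 12.7 to 13.1 and ELANE at 4.53 to 4.72. Mouse combination replicates 2 and 3 stood apart in RNA quality, with GAPDH 3′ minus 5′ control values of 1.504 and 2.047 against 0.44 to 0.654 on the 10 other mouse arrays. Some changes against DMSO and the interaction are given with and without them. Other results of the mouse combination include them, among them its contrasts with each compound alone.

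Cholesterol is built from acetyl-CoA through mevalonate, isoprenoid units, squalene and lanosterol, and fatty acids are built from the same acetyl-CoA by ACLY, ACACA and FASN and then lengthened and desaturated. When sterols in the endoplasmic reticulum run low, SCAP escorts SREBP proteins to the Golgi, where they are cut, and the freed fragments switch on most enzymes of both routes. INSIG1 and INSIG2 hold SCAP back when sterols are plentiful. Oxysterols act in parallel through the liver X receptors, which switch on the exporters ABCA1 and ABCG1. Dividing leukaemia cells use both routes to make membrane.

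Promoter sequences show what these genes share upstream. RefSeq windows from 250 bases before to 50 after the start (GRCh38.p14) were matched for 27 of the 31 genes and searched on both strands for 4 motifs. A gene was counted if any of its windows held the motif, while the share over all genes is one of single windows. The 2 are therefore not like for like, and genes with several windows have more room for a match. The core of the sterol response element, TCACNCCAC, was found for 1 of the 27 genes, against 1.13% of 35116 promoter windows. CACGTG was found for 4 of 27, against 7.26% of windows. CCAAT, the letters bound by NF-Y, was found for 20 of 27 genes, against 34.6% of windows. GGGCGG, the letters bound by SP1, was found for 26 of 27, against 45.0%. The windows of TMEM97, MSMO1, LPIN1 and LSS are shown because these genes had the most calls over the 12 human comparisons among those with a window and a match, ties going to the larger change, and that of SREBF2 was added after the search because it alone held TCACNCCAC. Each sequence gives the 250 bases before the start, 5′ to 3′ on the gene's strand, with any match to one of the 4 motifs in capitals. A match is only a match of letters.
TMEM97 (chr17:28318950-28319199, plus strand): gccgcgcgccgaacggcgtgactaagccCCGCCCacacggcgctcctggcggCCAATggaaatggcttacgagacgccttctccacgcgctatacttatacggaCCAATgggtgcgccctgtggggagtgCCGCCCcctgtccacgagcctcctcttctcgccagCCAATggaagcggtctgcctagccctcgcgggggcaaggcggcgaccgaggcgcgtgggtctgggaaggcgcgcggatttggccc
MSMO1 (chr4:165327419-165327668, plus strand): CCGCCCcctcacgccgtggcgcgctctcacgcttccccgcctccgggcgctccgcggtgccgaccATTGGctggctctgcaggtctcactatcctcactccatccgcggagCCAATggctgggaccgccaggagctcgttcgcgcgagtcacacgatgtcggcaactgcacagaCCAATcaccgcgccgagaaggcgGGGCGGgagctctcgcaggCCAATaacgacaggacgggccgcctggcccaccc
LPIN1 (chr2:11746382-11746631, plus strand): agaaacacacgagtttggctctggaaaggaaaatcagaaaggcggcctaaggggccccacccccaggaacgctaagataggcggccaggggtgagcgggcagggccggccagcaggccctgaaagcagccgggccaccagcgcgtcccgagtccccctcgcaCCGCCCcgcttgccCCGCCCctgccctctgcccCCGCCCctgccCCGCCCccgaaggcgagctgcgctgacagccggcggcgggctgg
LSS (chr21:46228775-46229024, minus strand): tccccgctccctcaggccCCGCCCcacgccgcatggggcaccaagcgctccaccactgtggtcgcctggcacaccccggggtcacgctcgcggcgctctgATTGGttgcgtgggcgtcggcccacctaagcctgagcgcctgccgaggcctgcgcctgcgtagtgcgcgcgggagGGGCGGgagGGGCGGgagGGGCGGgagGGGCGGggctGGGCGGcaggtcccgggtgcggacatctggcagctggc
SREBF2 (chr22:41832855-41833104, plus strand): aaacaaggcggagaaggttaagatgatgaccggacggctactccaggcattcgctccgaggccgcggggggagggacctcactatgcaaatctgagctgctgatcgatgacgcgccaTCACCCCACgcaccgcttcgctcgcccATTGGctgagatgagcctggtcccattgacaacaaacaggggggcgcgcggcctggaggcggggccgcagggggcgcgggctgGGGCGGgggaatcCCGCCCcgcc
TMEM97 held 3 CCAAT and 2 GGGCGG matches in these bases and MSMO1 4 and 2. LPIN1 held 4 GGGCGG matches and no CCAAT. LSS held 1 CCAAT and 6 GGGCGG matches before the start, and its CACGTG lay after the start, outside the bases shown.

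Across the 15 comparisons with DMSO, the genes were called most often in the 2 models with the KMT2A-MLLT3 type of fusion. There the share called exceeded that of all genes with MI-2-2 in both, EPZ004777 in the mouse and the combination in MOLM-13. It did not exceed it with EPZ004777 in MOLM-13 (27.7% of all genes called) or the combination in the mouse (64.7%). With EPZ004777 all calls in both models were higher, while with MI-2-2 the called sterol enzymes were lower in one and higher in the other. With MI-2-2, 8 of 16 sterol enzymes fell and none rose in MOLM-13, where 8.35% of all genes were called lower. In the mouse cells 13 of 17 rose and none fell, where 3.24% of all genes were called higher. The median change of the sterol enzymes was -0.27 and 0.83. In the B-precursor lines few genes were called, and most changes were small. In whole cultures, fewer cells of a type and less RNA per cell cannot be told apart.

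**Figure D1:**
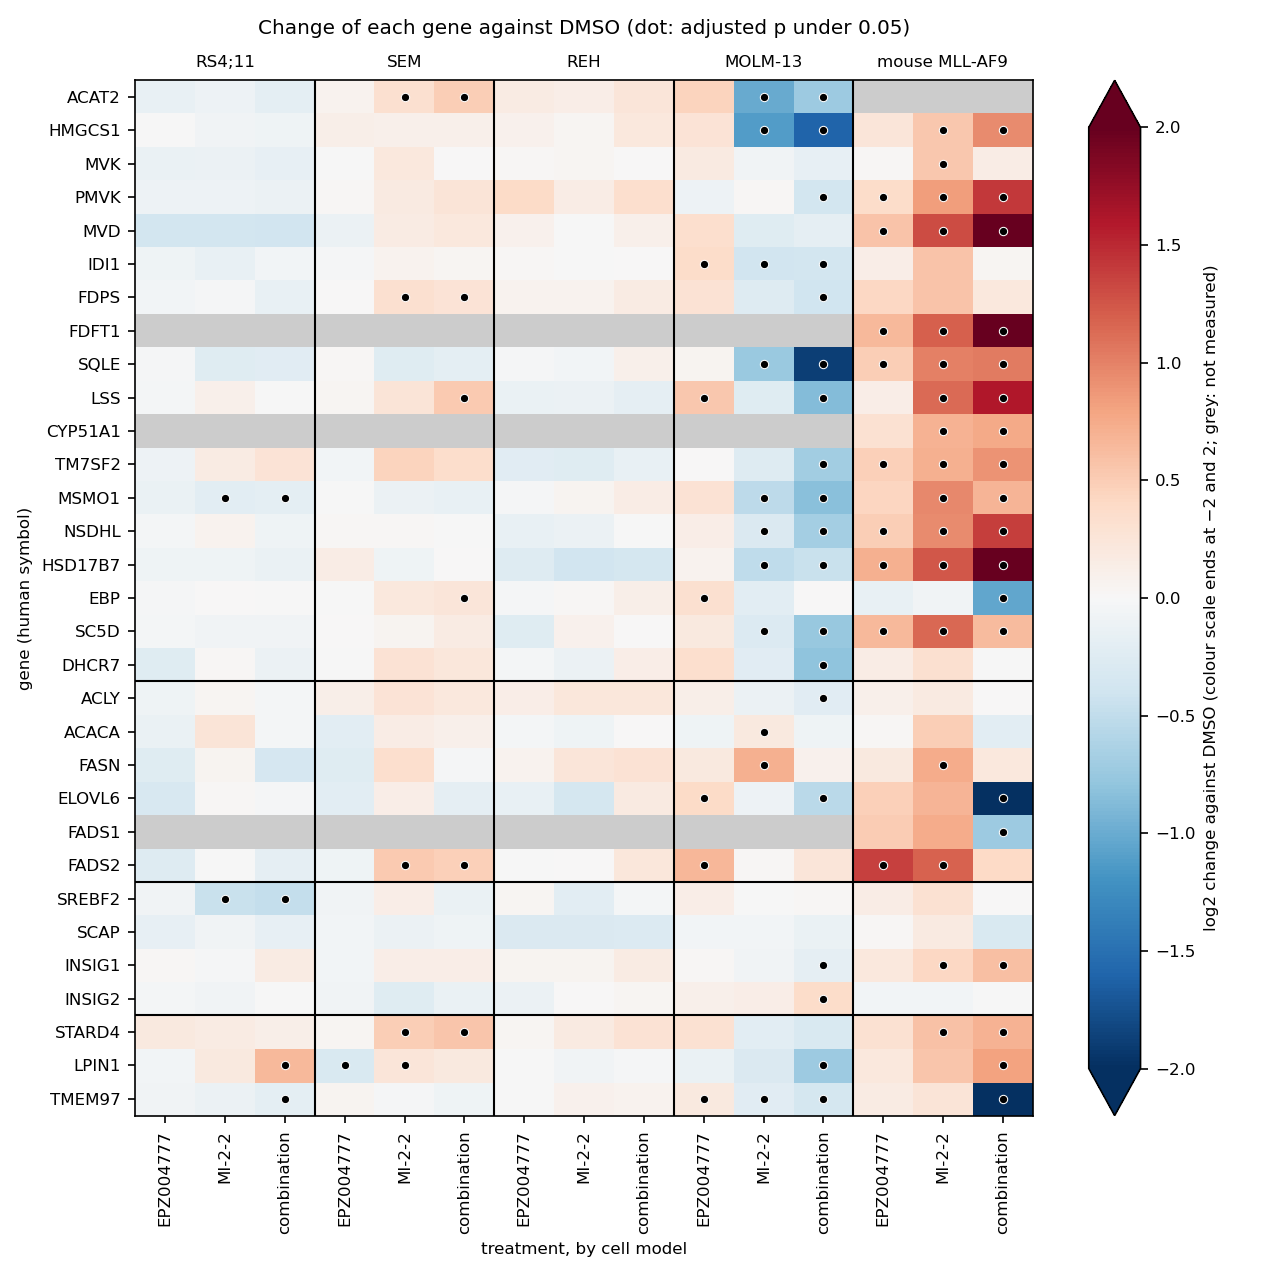
Log2 change against DMSO of the 31 genes (rows, by role from sterol synthesis at the top to STARD4, LPIN1 and TMEM97 at the bottom) in the 15 comparisons (columns, 3 treatments in each of 5 cell models). Dots mark an adjusted p under 0.05 in limma, and grey marks genes not measured. Blue cells with dots fill most of the sterol rows of the MOLM-13 combination (13 of 16 fell, against 25.5% of all genes). Red cells with dots fill most of the sterol rows of the mouse MI-2-2 column (13 of 17 rose, against 3.24%).

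In MOLM-13, MI-2-2 lowered enzymes from the start to near the end of the sterol route. Of the 28 genes, 11 were called (39.3%, against 18.5% of all 14209 genes tested), 9 lower and 2 higher. HMGCS1, which makes HMG-CoA, read 12.36, 12.73 and 11.93 with DMSO and 11.12, 11.19 and 11.38 with MI-2-2. ACAT2, which joins acetyl-CoA units for that step, read 12.09, 12.58 and 11.80 with DMSO and 11.04, 11.23 and 11.15 with MI-2-2. SQLE, the epoxidase of squalene, read 12.51, 12.74 and 12.35 with DMSO and 11.72, 11.74 and 11.93 with MI-2-2. For all 3 enzymes every treated array lay below every DMSO array. The changes were -1.11 ± 0.16 for HMGCS1 (limma adjusted p = 0.00069), -1.01 ± 0.16 for ACAT2 (limma adjusted p = 0.0014) and -0.74 ± 0.09 for SQLE (limma adjusted p = 0.00028), which is 2.16-fold, 2.02-fold and 1.67-fold lower. These 3 calls held when any array was left out.

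The other 6 falls were smaller. MSMO1, which removes methyl groups from sterol intermediates, changed by -0.52 ± 0.13, and HSD17B7, a sterol ketone reductase, by -0.51 ± 0.13. NSDHL, the sterol dehydrogenase of the same complex, changed by -0.29 ± 0.09, SC5D, a desaturase near the end of the route, by -0.28 ± 0.08, and IDI1, the isomerase of the isoprenoid unit, by -0.39 ± 0.11. TMEM97, the sigma-2 receptor that binds NPC1, changed by -0.23 ± 0.06. The limma adjusted p of these 6 lay between 0.018 and 0.043, and each of the calls was lost when some arrays were left out: HSD17B7 without MI-2-2 replicate 2 (limma adjusted p = 0.0516), MSMO1 without any of 4 arrays (adjusted p up to 0.0625), TMEM97 without any of 3 (up to 0.072), SC5D without any of 5 (up to 0.114), and IDI1 and NSDHL without any of 9 (up to 0.112 and 0.132). Without MI-2-2 replicate 2 the count of called genes was 5, and without DMSO replicate 2 it was 6. LSS, FDPS, DHCR7, TM7SF2, MVD and EBP had changes between -0.25 and -0.20 and did not pass, nor did MVK (-0.07 ± 0.06) or PMVK (0.02 ± 0.08).

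Among the fatty acid enzymes, FASN and ACACA were called with MI-2-2 in MOLM-13, both higher. FASN, the fatty acid synthase, read 8.30, 8.19 and 7.86 with DMSO and 8.68, 8.70 and 9.12 with MI-2-2, and every treated array was above every DMSO array. It rose by 0.71 ± 0.14 (limma adjusted p = 0.0046). ACACA, which makes malonyl-CoA, rose by 0.20 ± 0.05 (limma adjusted p = 0.012), a small change that separated the groups (11.65 to 11.71 and 11.84 to 11.91). A further ACACA probe set read -0.17 (adjusted p = 0.28). Both calls held when any array was left out. ACLY (-0.11 ± 0.05), ELOVL6 (-0.10 ± 0.08) and FADS2 (0.02 ± 0.17) did not pass. Of the regulators, SREBF2, which encodes SREBP-2, SCAP, INSIG1 and INSIG2 had changes between -0.06 and 0.13, none of which passed.

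With the combination most sterol enzymes were lower than with DMSO in MOLM-13. Of the 28 genes, 19 were called (67.9%, against 48.9% of all genes tested), 18 lower and 1 higher, and 13 of the 16 sterol enzymes fell, with a median of -0.69 against 0.00 over all genes tested. SQLE read 10.66, 10.63 and 10.68 with the combination, close together and well below the lowest DMSO array, and changed by -1.88 ± 0.09 (limma adjusted p = 4.5e-08), or 3.69-fold. HMGCS1 read 10.71, 10.78 and 10.73 and changed by -1.60 ± 0.16 (limma adjusted p = 9.5e-06). LSS, the cyclase that makes lanosterol, read 10.06, 10.32 and 9.64 with DMSO and 9.09, 9.17 and 9.14 with the combination. Every combination array of these 3 enzymes lay below every DMSO array.

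The remaining falls ran from the first to the last steps. LSS changed by -0.87 ± 0.17, MSMO1 by -0.83 ± 0.13, DHCR7, the last reductase before cholesterol, by -0.81 ± 0.15, SC5D by -0.76 ± 0.08, ACAT2 by -0.73 ± 0.16, TM7SF2, a sterol C14 reductase, by -0.70 ± 0.14, and NSDHL by -0.68 ± 0.09. The limma adjusted p of these 7 lay between 1.9e-05 and 0.0026. HSD17B7, FDPS, PMVK and IDI1 fell by 0.44, 0.41, 0.37 and 0.37. A further bright IDI1 probe set read -0.37, while 2 dim ones read 0.54 and 0.19. EBP, the sterol isomerase, did not change detectably (0.01 ± 0.08), nor did MVK or MVD pass.

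Outside the sterol enzymes the combination lowered LPIN1, a phosphatidate phosphatase, from 11.08, 11.47 and 10.92 to 10.56, 10.43 and 10.32 (-0.72 ± 0.13, limma adjusted p = 0.00067). ELOVL6, which lengthens palmitate, changed by -0.54 ± 0.08, TMEM97 by -0.35 ± 0.06, ACLY, which makes cytosolic acetyl-CoA, by -0.22 ± 0.05 and INSIG1 by -0.19 ± 0.06. Further ELOVL6 probe sets read -0.63 and 0.13, and the INSIG1 call was lost without combination replicate 3 or DMSO replicate 2 (limma adjusted p up to 0.0636), as was that of IDI1 without combination replicate 2 or DMSO replicate 2 (up to 0.0707). INSIG2, the other anchor of SCAP, was the only one of the 28 genes that rose, from 10.38, 10.47 and 10.46 to 10.84, 10.79 and 10.81 (0.37 ± 0.05, limma adjusted p = 0.00011). The 2 anchors thus moved in opposite directions, and the INSIG2 groups did not overlap. SREBF2 read 10.71, 10.66 and 10.52 with DMSO and 10.58, 10.70 and 10.69 with the combination, overlapping groups. FASN, higher with MI-2-2, read 8.03, 8.27 and 8.31 with the combination (0.08 ± 0.14).

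**Figure D2:**
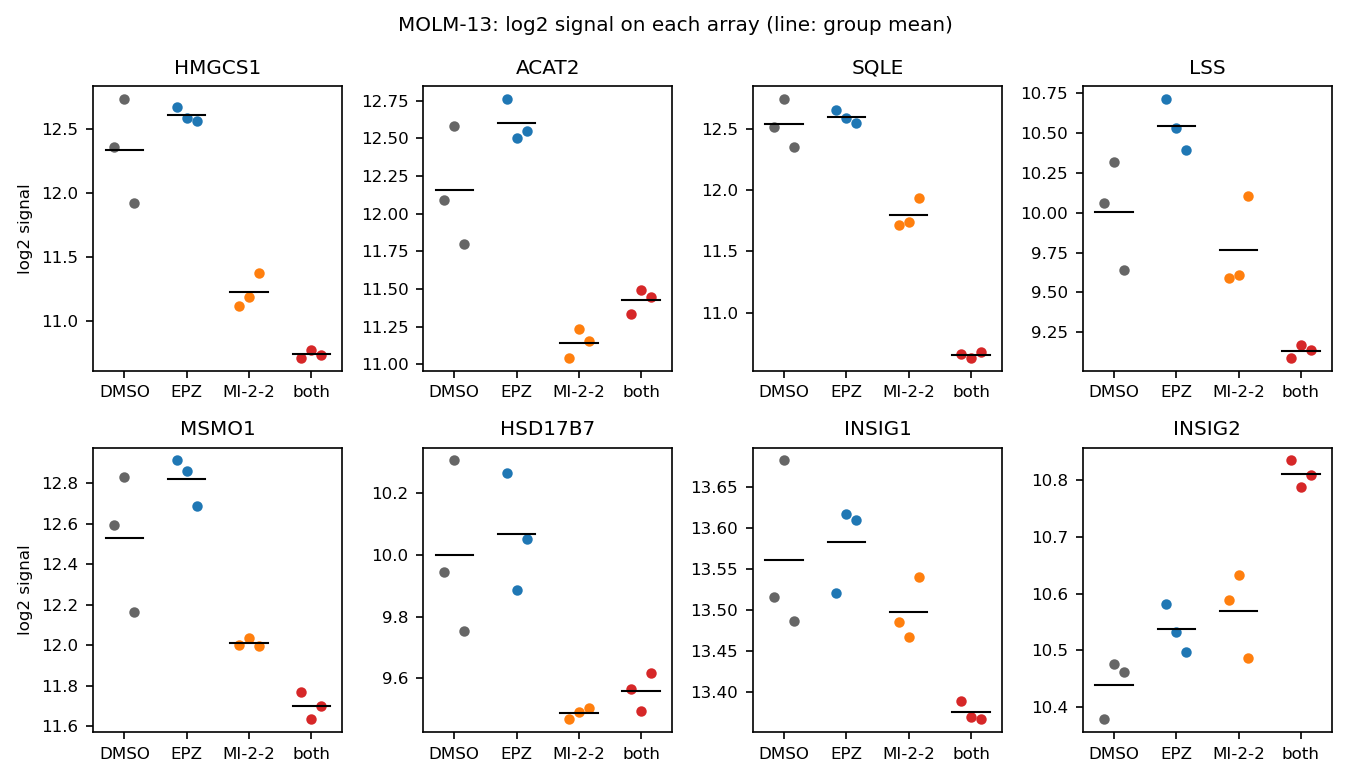
Log2 signal on each of the 12 MOLM-13 arrays for 8 genes, 1 panel per gene, with treatment on the horizontal axis, 1 point per array and a line at the group mean; vertical axes differ between panels and do not start at 0. For SQLE the combination arrays lie at 10.63 to 10.68 and the DMSO arrays at 12.35 to 12.74, while INSIG2 rises to 10.79 to 10.84.

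With EPZ004777 alone few of the genes were called in MOLM-13. Of the 28 genes, 6 were (21.4%, below the 27.7% of all genes tested, so the count is no result about these genes), all higher: FADS2, a fatty acid desaturase (0.67 ± 0.17), LSS (0.54 ± 0.17), ELOVL6 (0.38 ± 0.08), IDI1 (0.36 ± 0.11), EBP (0.33 ± 0.08) and TMEM97 (0.19 ± 0.06). Their limma adjusted p lay between 0.007 and 0.039. FADS2 read 7.46, 7.95 and 7.37 with DMSO and 8.49, 8.14 and 8.15 with EPZ004777, and LSS read 10.71, 10.53 and 10.39 with EPZ004777. All EPZ004777 arrays of both genes were above all DMSO arrays. Only the calls of ELOVL6 and EBP held when any array was left out. The count was 2 without EPZ004777 replicate 1 or DMSO replicate 3, 3 without EPZ004777 replicate 2 or DMSO replicate 1, and 16 without DMSO replicate 2. HMGCS1 (0.27 ± 0.16), SQLE (0.06 ± 0.09), INSIG1 (0.02 ± 0.06), FASN (0.19 ± 0.14), LPIN1 (-0.13 ± 0.13) and SREBF2 (0.13 ± 0.08) did not pass.

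The DMSO arrays of MOLM-13 differed among themselves in these genes. Replicate 2 was the highest of the 3 DMSO arrays for 23 of the 28 genes and for 15 of the 16 sterol enzymes, and replicate 3 was the lowest for 25 of 28 and 15 of 16. Over all 14209 genes tested, replicate 2 was highest for 3291 and replicate 3 lowest for 3997. The HMGCS1 levels of 12.36, 12.73 and 11.93 show the size of that spread. With 1 array left out, the EPZ004777 count ran from 2 (such as without DMSO replicate 3) to 16 (without DMSO replicate 2). The MI-2-2 count ran from 5 to 14. The source of the spread was not tested.

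At the same dose and duration the compounds themselves differed in MOLM-13. EPZ004777 minus MI-2-2 called 21 of the 28 genes, against 20.8% of all genes tested. Of these, 19 were higher with EPZ004777, led by ACAT2 (1.46 ± 0.16), HMGCS1 (1.38 ± 0.16), MSMO1 (0.81 ± 0.13), SQLE (0.80 ± 0.09), LSS (0.78 ± 0.17) and IDI1 (0.75 ± 0.11), and 2 were lower, FASN (-0.52 ± 0.14) and ACACA (-0.28 ± 0.05). The combination was below MI-2-2 alone for 12 genes and above it for INSIG2 (13 called, 46.4% against 39.2% of all genes), with SQLE at -1.14 ± 0.09 and LSS at -0.63 ± 0.17. It was lower for 8 of the 16 sterol enzymes. ACAT2 (0.28 ± 0.16), HSD17B7 (0.07 ± 0.13), MVD (0.06 ± 0.12) and IDI1 (0.02 ± 0.11), which were no lower with the combination than with MI-2-2, did not pass. It was below EPZ004777 alone for 22 genes and above it for INSIG2 (23 called, against 33%). All 16 sterol enzymes were among those 22. The interaction, the combination's change minus the sum of the single changes, was called for 10 genes, all negative, against 12.8% of all genes. SQLE (-1.20 ± 0.13, limma adjusted p = 0.00039), LSS (-1.17 ± 0.24), DHCR7 (-0.92 ± 0.21), ELOVL6 (-0.82 ± 0.12) and FASN (-0.82 ± 0.19) had the largest values.

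In the mouse cells MI-2-2 raised nearly the whole sterol route. Of the 30 genes, 17 were called (56.7%, against 5.26% of all 13365 genes tested), all higher, and 13 of 17 sterol enzymes rose. Mvd, which decarboxylates mevalonate diphosphate, read 9.90, 10.12 and 10.02 with DMSO and 11.28, 11.46 and 11.20 with MI-2-2. Hsd17b7 read 10.27, 10.43 and 10.40 with DMSO and 11.61, 11.55 and 11.68 with MI-2-2. Fdft1, the squalene synthase, read 10.34, 10.74 and 10.58 with DMSO and 11.75, 11.85 and 11.65 with MI-2-2. For all 3 enzymes the lowest treated array was well above the highest DMSO array. The changes were 1.30 ± 0.13 for Mvd (limma adjusted p = 0.00017), 1.25 ± 0.12 for Hsd17b7 (limma adjusted p = 0.00021) and 1.20 ± 0.12 for Fdft1 (limma adjusted p = 0.00024).

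The other sterol enzymes rose by less. Sc5d changed by 1.16 ± 0.16, Lss by 1.13 ± 0.18, Sqle by 1.01 ± 0.12, Msmo1 by 0.96 ± 0.20, Nsdhl by 0.95 ± 0.08, Pmvk, the kinase of mevalonate phosphate, by 0.83 ± 0.09, Tm7sf2 by 0.70 ± 0.10, Cyp51, which demethylates lanosterol, by 0.70 ± 0.10, Mvk, the mevalonate kinase, by 0.55 ± 0.12 and Hmgcs1 by 0.54 ± 0.08. Hmgcs1 read 13.23, 13.35 and 13.34 with DMSO and 13.87, 13.89 and 13.80 with MI-2-2, so the smallest of these changes still separated the groups. Idi1 (0.56 ± 0.19), Fdps, which makes farnesyl diphosphate (0.58 ± 0.19), Dhcr7 (0.32 ± 0.10) and Ebp (-0.08 ± 0.29) did not pass. Outside the sterol enzymes Fads2 (1.18 ± 0.27), Fasn (0.75 ± 0.14), the sterol carrier Stard4 (0.58 ± 0.09) and Insig1 (0.41 ± 0.09) rose. Fasn read 11.60, 11.58 and 11.49 with DMSO and 12.16, 12.61 and 12.14 with MI-2-2, and Insig1 read 12.70, 12.82 and 12.87 against 13.30, 13.13 and 13.19, without overlap in either gene. Srebf2 read 11.65, 11.77 and 11.70 with DMSO and 11.94, 12.03 and 12.05 with MI-2-2, higher on each array but not called (0.30 ± 0.22). Of the 17 calls, 13 held when any array was left out. The calls of Mvk and Insig1 (each lost without any of 6 arrays, limma adjusted p up to 0.0957 and 0.125) and of Msmo1 and Fads2 (each lost without any of 5, up to 0.0673 and 0.128) did not. Fads2 and Elovl6 were higher on DMSO replicate 1 (11.69 and 11.34) than on replicates 2 and 3 (10.91 and 10.75, 10.63 and 10.55), an array on which the myeloid enzyme Mpo was lower (9.54 against 11.81 and 11.79).

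EPZ004777 raised a part of the same enzymes in the mouse cells. Of 30 genes, 9 were called (30%, against 5.6% of all genes tested), all higher and 8 of them sterol enzymes: Hsd17b7 (0.72 ± 0.12), Sc5d (0.64 ± 0.16), Fdft1 (0.64 ± 0.12), Mvd (0.57 ± 0.13), Sqle (0.50 ± 0.12), Nsdhl (0.49 ± 0.08), Tm7sf2 (0.47 ± 0.10) and Pmvk (0.36 ± 0.09). Fads2 rose most, from 11.69, 10.91 and 10.75 to 12.43, 12.50 and 12.52 (1.37 ± 0.27, limma adjusted p = 0.012). The limma adjusted p of the 8 enzymes lay between 0.0029 and 0.042. Only Hsd17b7, Fdft1 and Nsdhl held when any array was left out, and the count fell to 4 without replicate 1 or 2 of EPZ004777 or of DMSO, fell to 3 without DMSO replicate 3, and rose to 15 without combination replicate 1. A further bright Fdft1 probe set read 0.51, and a pair of dim ones read -0.00 and -0.08. The single compounds share their DMSO arrays. Set directly against each other at the same dose, they differed for 4 of 30 genes (against 0.501% of all genes): EPZ004777 gave lower values than MI-2-2 for Lss (-0.997 ± 0.18), Mvd (-0.73 ± 0.13), Pmvk (-0.47 ± 0.09) and Nsdhl (-0.46 ± 0.08).

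With the combination most mouse sterol enzymes were higher than with DMSO. Of 30 genes, 19 were called (63.3%), 15 higher and 4 lower. That share over both directions is near the 64.7% of all genes tested and so no result about these genes. Of the 17 sterol enzymes 12 rose, where 28.5% of all genes were called higher, and Ebp fell, where 36.2% were called lower. Mvk (0.15 ± 0.12), Idi1 (0.03 ± 0.19), Fdps (0.22 ± 0.19) and Dhcr7 (-0.01 ± 0.10) did not pass. Mvd read 11.94, 12.30 and 12.39, Fdft1 12.58, 12.65 and 12.85, and Hsd17b7 12.71, 12.21 and 12.38. These lay above the DMSO and the MI-2-2 arrays without overlap. The changes against DMSO were 2.19 ± 0.13 for Mvd (limma adjusted p = 1.1e-07), 2.14 ± 0.12 for Fdft1 (limma adjusted p = 1.2e-07) and 2.07 ± 0.12 for Hsd17b7 (limma adjusted p = 1.6e-07), 4.57-fold, 4.41-fold and 4.20-fold higher. Sqle stayed level with MI-2-2 alone, at 12.24, 12.02 and 11.87 against 11.97, 12.14 and 11.92. Lss (1.60 ± 0.18), Pmvk (1.41 ± 0.09), Nsdhl (1.39 ± 0.08), Sqle (1.04 ± 0.12), Hmgcs1 (0.95 ± 0.08), Tm7sf2 (0.90 ± 0.10), Cyp51 (0.76 ± 0.10), Msmo1 (0.69 ± 0.20) and Sc5d (0.63 ± 0.16) also rose, and so did Lpin1 (from 7.83, 7.94 and 8.18 to 9.37, 8.46 and 8.55, 0.81 ± 0.22), Stard4 (0.70 ± 0.09) and Insig1 (0.60 ± 0.09).

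In the mouse combination arrays 4 genes fell. Elovl6 read 11.34, 10.63 and 10.55 with DMSO and 8.11, 8.08 and 8.56 with the combination, far apart (-2.59 ± 0.21, limma adjusted p = 1.9e-06). Tmem97 read 12.19, 12.08 and 11.97 with DMSO and 10.54, 8.12 and 8.30 with the combination (-3.09 ± 0.49, limma adjusted p = 0.00023). Its fall was larger on replicates 2 and 3, the arrays that stood apart in RNA quality. Without those 2 arrays, which leaves 1 combination array assumed to vary like the other groups, Tmem97 changed by -1.54 and Elovl6 by -2.73, both still called, Ebp by -0.18 instead of -1.04 (limma adjusted p = 0.36) and Fads1, a fatty acid desaturase, by 0.13 instead of -0.73 (limma adjusted p = 0.39). The 2 others, Ebp and Fads1, thus rested on those arrays, and Fads1 was also lost without any 1 of 11 arrays (up to 0.175). Msmo1 then changed by 1.25 and Sc5d by 1.02, Lss by 1.17 instead of 1.60 and Lpin1 by 1.39 instead of 0.81. Idi1 (13.23, 12.33 and 12.42) and Srebf2 (12.38, 11.47 and 11.30) were likewise highest on replicate 1.

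**Figure D3:**
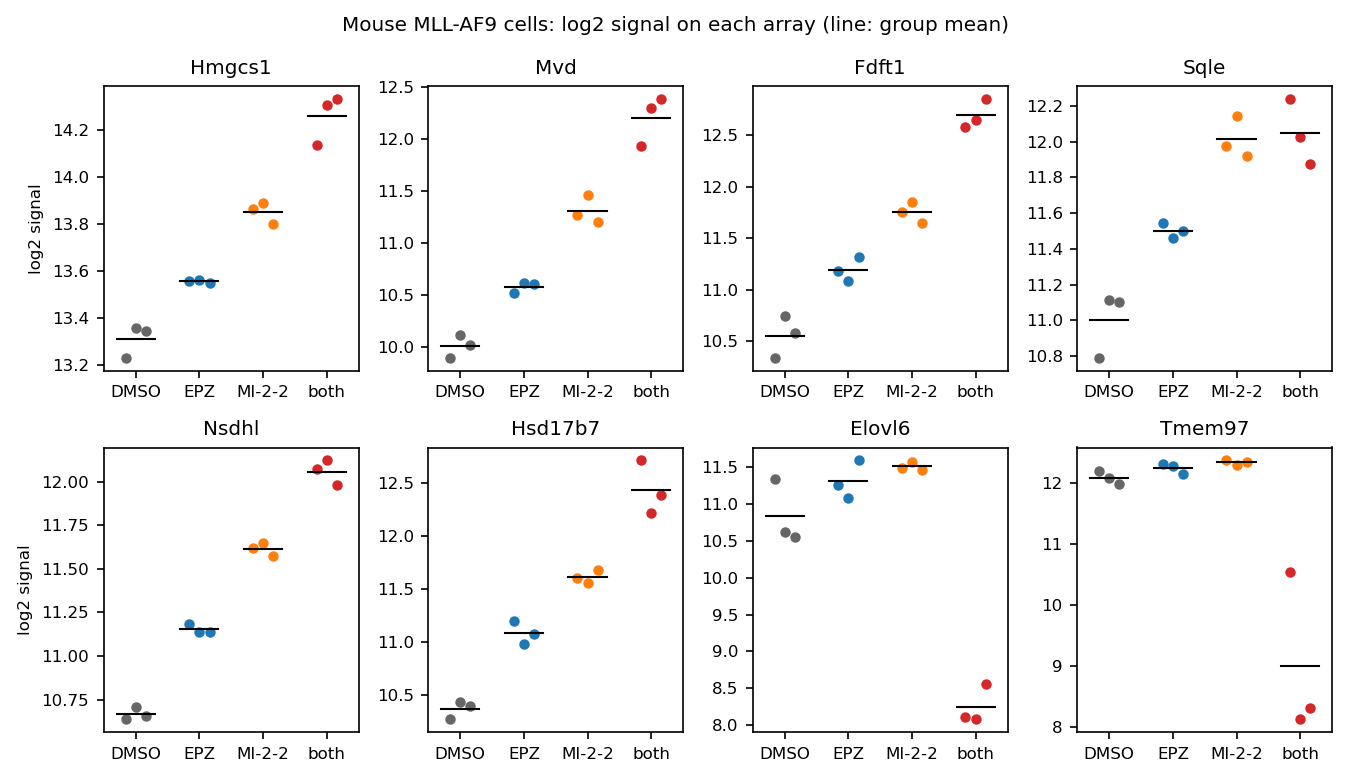
Log2 signal on each of the 12 mouse arrays for 8 genes, 1 panel per gene, with treatment on the horizontal axis, 1 point per array (replicates 1 to 3 from left to right) and a line at the group mean; vertical axes differ between panels and do not start at 0. Mvd climbs from 9.90 to 10.12 with DMSO to 11.94 to 12.39 with the combination, while Elovl6 drops to 8.08 to 8.56 and Tmem97 splits into 10.54 and a pair at 8.12 and 8.30.

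Relative to each compound alone, the mouse combination was higher than MI-2-2 for 7 of 30 genes, where 28.9% of all genes were called higher. The 7 were all sterol enzymes, led by Fdft1 (0.94 ± 0.12) and Mvd (0.90 ± 0.13). The combination was lower than MI-2-2 for 12, where 33.8% of all genes were called lower. The 19 called are near the 62.6% of all genes, so the count is no result about these genes. The combination was higher than EPZ004777 for 13 (against 28.6% of all genes) and lower for 5 (against 34.8%). The 18 called there are not above the 63.5% of all genes. Both contrasts include combination replicates 2 and 3. The interaction was called for 10 genes, all negative, against 48.2% of all genes. Without combination replicates 2 and 3 it was called for 12 genes, against 51.2% of all genes, and 8 of the 10 were among them. With and without those arrays it was -3.74 ± 0.30 and -3.88 ± 0.36 for Elovl6, -3.51 ± 0.69 and -1.95 ± 0.13 for Tmem97, -2.14 ± 0.38 and -1.57 ± 0.37 for Fads2, -1.99 ± 0.41 and -1.13 ± 0.15 for Fads1, and -1.17 ± 0.23 and -0.78 ± 0.17 for Sc5d, all called in both fits. The calls of Sqle (-0.47 ± 0.17) and Fdps (-0.77 ± 0.27) were lost without them (limma adjusted p = 0.21 and 0.099), and those of Hsd17b7 (0.38 ± 0.13), Lpin1 (0.62 ± 0.21), Tm7sf2 (-0.45 ± 0.12) and Scap (-0.60 ± 0.20) were gained. Mvd, Fdft1, Nsdhl and Pmvk had no called interaction in either fit.

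MOLM-13 and the mouse cells received the same doses for the same time but were read on different arrays, so their difference was not tested. With MI-2-2, 6 of the 27 genes measured in both were called lower in MOLM-13 and higher in the mouse with non-overlapping groups in each: HMGCS1, SQLE, MSMO1, NSDHL, HSD17B7 and SC5D. These are 22.2% of the 27, against 0.314% of the 9864 genes tested in both (paired by symbol, with or without overlap of the groups). With the combination, 11 were (40.7%, against 4.44%), the same 6 and PMVK, LSS, TM7SF2, INSIG1 and LPIN1. Without mouse combination replicates 2 and 3, which leaves 1 combination array, the mouse changes of these 11 lay between 0.63 (INSIG1) and 2.35 (HSD17B7). No gene was called in the opposite way, lower in the mouse and higher in MOLM-13. With EPZ004777 none was called in opposite directions (0.487% of all genes were called lower in MOLM-13 and higher in the mouse), and FADS2 was called higher in both. FASN was called higher in both with MI-2-2 (0.71 ± 0.14 and 0.75 ± 0.14). ELOVL6 and TMEM97 were called lower in both with the combination.

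**Figure D4:**
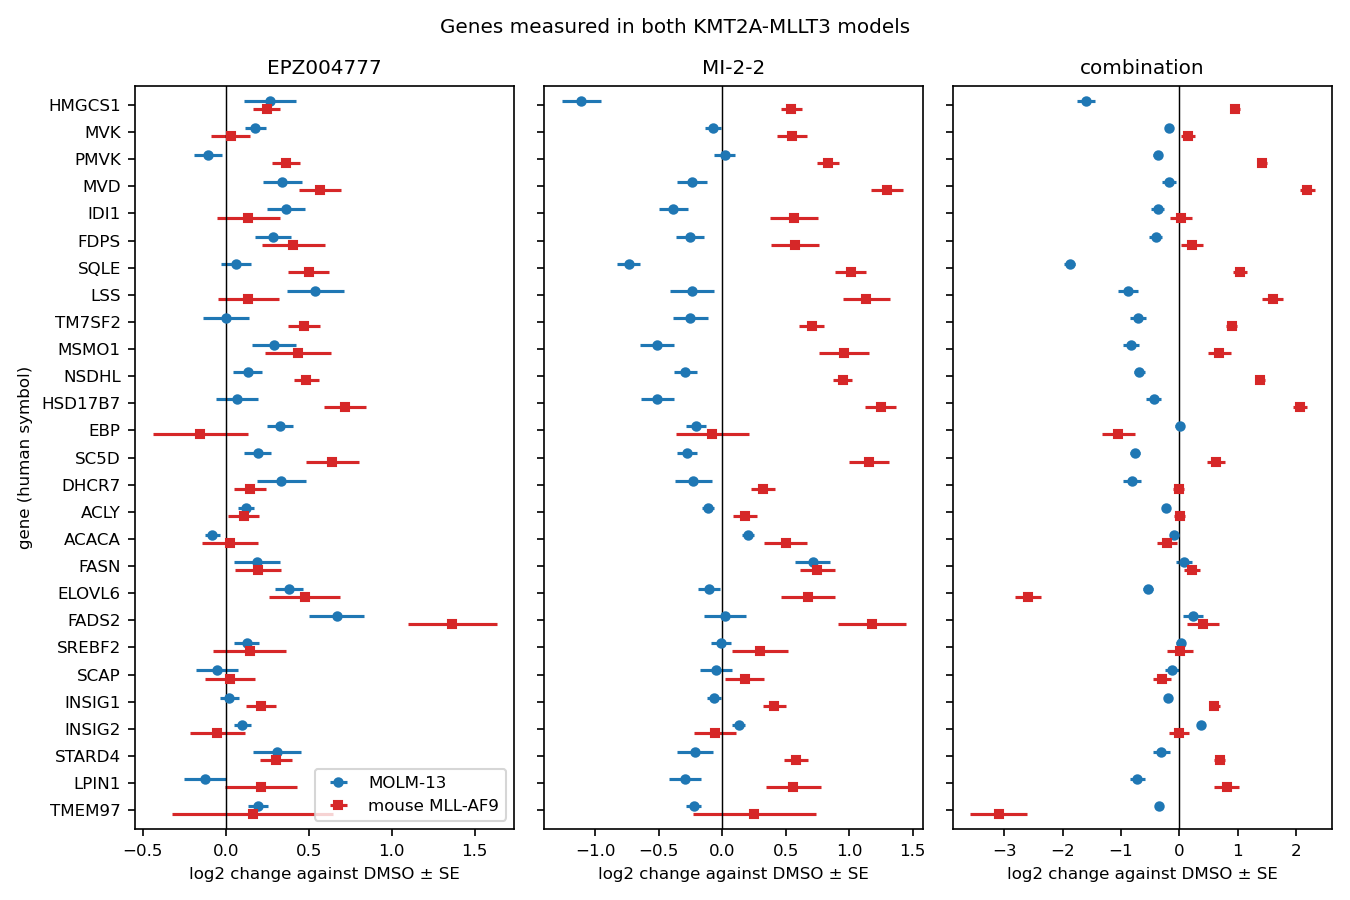
Log2 change against DMSO with its standard error for the 27 genes measured in MOLM-13 (blue circles) and the mouse cells (red squares), 1 panel per treatment; horizontal axes differ between panels. For MI-2-2 and the combination most sterol enzymes lie left of 0 in MOLM-13 and right of 0 in the mouse (SQLE -1.88 and 1.04 with the combination). Exceptions are PMVK in MOLM-13 (0.02) and EBP in the mouse (-0.08) with MI-2-2, and EBP (0.01 in MOLM-13, -1.04 in the mouse) and DHCR7 (-0.01 in the mouse) with the combination, while for EPZ004777 most lie right of 0 in both.

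In SEM the genes were called about as often as all genes with MI-2-2, and less often with the combination. Of 28 genes, 5 were called with MI-2-2 (17.9%, against 17.8% of all 14037 genes tested), so the count is no result about these genes. All were higher: FADS2 (0.52 ± 0.10), STARD4 (0.49 ± 0.09), ACAT2 (0.32 ± 0.07), FDPS (0.31 ± 0.07) and LPIN1 (0.25 ± 0.07), with limma adjusted p from 0.0081 to 0.047. STARD4 read 10.02 and 10.13 with DMSO and 10.65 and 10.48 with MI-2-2. With the combination 6 were called (21.4%, below the 29.6% of all genes, so again no result about these genes). All were higher: STARD4 (0.55 ± 0.09), LSS (0.53 ± 0.09), ACAT2 (0.50 ± 0.07), FADS2 (0.47 ± 0.10), FDPS (0.27 ± 0.07) and EBP (0.24 ± 0.06), with limma adjusted p from 0.0019 to 0.026. ACAT2 read 11.31 and 11.29 with DMSO and 11.72 and 11.87 with the combination, and LSS 10.23 and 10.05 against 10.59 and 10.74. These groups of 2 arrays did not overlap. With EPZ004777 LPIN1 alone was called (3.57%, against 8.78%), from 11.32 and 11.35 to 11.01, 11.11 and 10.97 (-0.31 ± 0.06, limma adjusted p = 0.027).

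The SEM calls moved with RNA quality and with single arrays. The actin 3′ minus 5′ control value was lower on the arrays with MI-2-2 or the combination (1.83 to 1.93) than on those with DMSO or EPZ004777 (2.32 to 2.48), and with that value as a covariate none of the 28 genes was called in any SEM comparison. Covariate and treatment are nearly the same split of the arrays and cannot be told apart. Every MI-2-2 call was lost without 1 array or another, and the count was 2 without MI-2-2 replicate 1 and 1 without MI-2-2 replicate 3 or either DMSO array. With the combination the calls of ACAT2, LSS and STARD4 held, and the count was 3 without DMSO replicate 3. The LPIN1 call with EPZ004777 was lost without EPZ004777 replicate 3 or either DMSO array (limma adjusted p up to 0.158). HMGCS1 read 12.23 and 12.29 with DMSO, 12.40 and 12.33 with MI-2-2 and 12.29 and 12.45 with the combination. SQLE read 11.26 and 11.24 with DMSO, 11.04 and 10.98 with MI-2-2 and 10.96 and 11.16 with the combination, lower on all MI-2-2 and combination arrays but not called. SQLE (-0.24 ± 0.08 and -0.19 ± 0.08), INSIG1 (0.14 ± 0.08 with each), FASN (0.34 ± 0.11 and -0.03 ± 0.11) and SREBF2 (0.13 ± 0.11 and -0.13 ± 0.11) did not pass either.

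In RS4;11 the sterol enzymes were nearly level. With MI-2-2, 2 of 28 genes were called (7.14%, against 12.6% of all 13921 genes tested), both lower: SREBF2 (-0.44 ± 0.09, limma adjusted p = 0.012) and MSMO1 (-0.21 ± 0.06, limma adjusted p = 0.042). SREBF2, the gene whose promoter held the sterol response element, read 10.66 and 10.88 with DMSO, 10.28, 10.50 and 10.22 with MI-2-2 and 10.24, 10.28 and 10.34 with the combination. Both treated groups lay below both DMSO arrays, and both comparisons share those arrays. With the combination 4 were called (14.3%, against 23.5%): SREBF2 (-0.48 ± 0.09, limma adjusted p = 0.0041), MSMO1 (-0.20 ± 0.06) and TMEM97 (-0.20 ± 0.06) lower and LPIN1 higher. LPIN1 read 10.91 and 10.94 with DMSO and 11.60, 11.47 and 11.65 with the combination, well apart (0.65 ± 0.10, limma adjusted p = 0.00074).

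Of these RS4;11 calls only that of LPIN1 held when any array was left out. Without DMSO replicate 3 no gene was called with MI-2-2 and 1 with the combination, and the limma adjusted p of SREBF2 was 0.14 and 0.06. The MSMO1 calls were lost without any of 8 and 7 arrays (up to 0.245 and 0.207) and that of TMEM97 without any of 6 (up to 0.17). The MI-2-2 count was also 1 without DMSO replicate 2, combination replicate 1, replicate 1 or 2 of EPZ004777, or replicate 1 or 3 of MI-2-2, and the combination count 2 without combination replicate 1 or EPZ004777 replicate 2. With EPZ004777 no gene was called by limma (against 6.63% of all genes) and 5 had an unadjusted p under 0.05, with changes from -0.36 to -0.13; the count was 1 without combination replicate 1 or 3. HMGCS1 stayed within 12.26 to 12.51 on all 11 arrays. SQLE read 12.01 and 11.99 with DMSO, 11.63, 11.89 and 11.74 with MI-2-2 and 11.76, 11.84 and 11.74 with the combination. It was again lower on each MI-2-2 and combination array, without a call. It changed by -0.24 ± 0.08 with MI-2-2 and -0.22 ± 0.08 with the combination, INSIG1 by -0.03 ± 0.09 and 0.17 ± 0.09 and FASN by 0.06 ± 0.14 and -0.34 ± 0.14, none of which passed.

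REH, the line without a KMT2A fusion, gave no call among the 28 genes with any treatment in limma, against 4.11%, 1.34% and 7.49% of all 13961 genes tested with EPZ004777, MI-2-2 and the combination. The numbers with an unadjusted p under 0.05 were 1, 3 and 5. The value nearest to the threshold was that of PMVK, which read 9.39, 9.61 and 9.67 with DMSO and 10.06, 9.91 and 9.84 with EPZ004777 (0.38 ± 0.10, limma adjusted p = 0.051). HMGCS1 read 12.30, 12.18 and 12.24 with DMSO and 12.51, 12.45 and 12.42 with the combination (0.22 ± 0.08, limma adjusted p = 0.11). Standard errors in REH lay between 0.08 and 0.21, so changes of the size seen in MOLM-13 for HMGCS1 exceed them several times. SQLE read 11.37, 10.74 and 11.05 with DMSO and 10.92 to 11.18 on the 9 treated arrays, all inside the DMSO range. FASN (7.08, 7.12 and 7.51 with DMSO), SREBF2 (10.41, 10.10 and 10.66), INSIG1 (13.13, 12.97 and 13.04) and LPIN1 (10.91, 11.00 and 10.77) also had overlapping groups with all 3 treatments. DMSO replicate 3 had an actin 3′ minus 5′ value of 3.65, against 2.36 to 3.11 on the other 11 arrays; without it 1 gene was called with EPZ004777 and 3 with the combination, and without DMSO replicate 2, 1 gene was called with MI-2-2.

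The difference between lines was tested for the 3 lines with equal doses, by subtracting the REH effect from the average of the RS4;11 and SEM effects. It was called for 1 of 28 genes with EPZ004777 (3.57%, against 5.25% of all 14943 genes tested), 1 with MI-2-2 (3.57%, against 13.6%) and 3 with the combination (10.7%, against 20.7%). PMVK differed by -0.42 ± 0.11 with EPZ004777 and ELOVL6 by 0.44 ± 0.14 with MI-2-2. With the combination LPIN1 differed by 0.44 ± 0.10 (limma adjusted p = 0.002), MSMO1 by -0.32 ± 0.10 and TMEM97 by -0.22 ± 0.07. Only the LPIN1 difference held when any array was left out. Fits without 1 array gave 0 to 2, 0 to 6 and 2 to 6 called genes, the highest without REH DMSO replicate 3 for EPZ004777 (2), without REH DMSO replicate 2 for MI-2-2 (6) and without REH DMSO replicate 1 or 2 for the combination (6 each).

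**Figure D5:**
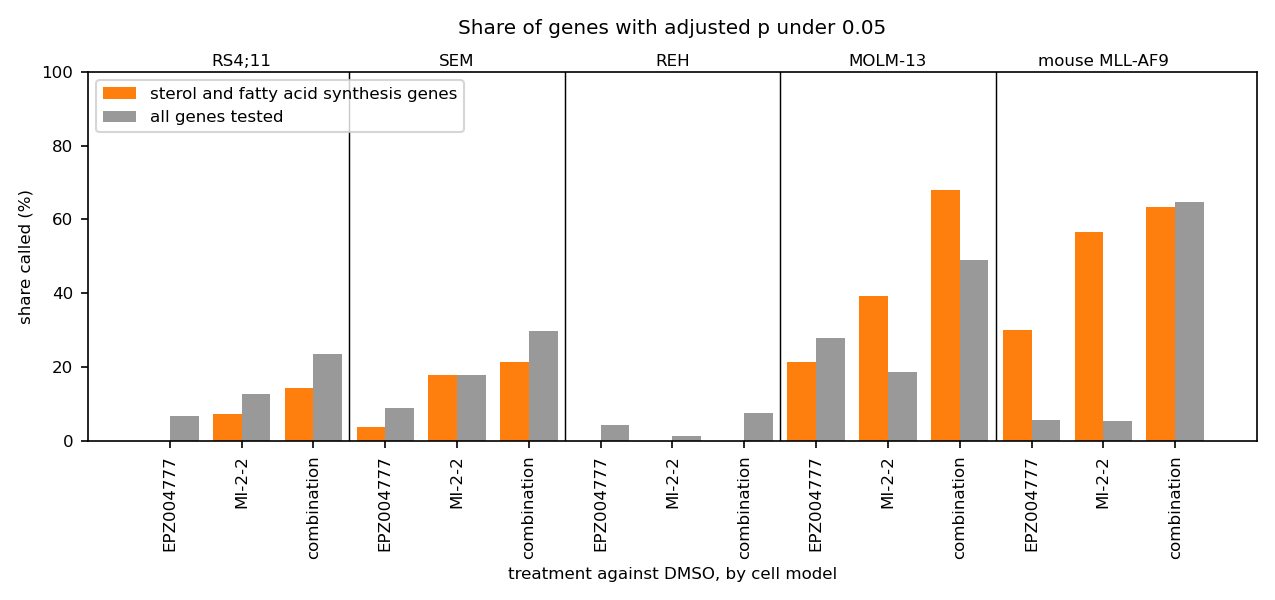
Share of the sterol and fatty acid synthesis genes (orange) and of all genes tested (grey) with an adjusted p under 0.05 in limma, for each treatment against DMSO in the 5 cell models; bars start at 0. The orange bar is above the grey one for MI-2-2 in MOLM-13 (39.3% and 18.5%) and in the mouse (56.7% and 5.26%), for EPZ004777 in the mouse (30% and 5.6%) and for the combination in MOLM-13 (67.9% and 48.9%), and it is at 0 throughout REH.

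For neighbouring lipid genes the share called lay near or below that of all genes in MOLM-13 and the mouse, apart from EPZ004777 in the mouse (8.11%, against 5.6%). Of 41 genes of the isoprenoid branch, SREBP processing, cholesterol handling and further fatty acid synthesis, 37 were measured in each model. With MI-2-2 1 of the 37 was called in MOLM-13 (2.7%, against 18.5% of all genes), SOAT1, which esterifies cholesterol (-0.32 ± 0.08), and 2 in the mouse (5.41%, against 5.26%), both higher: Acss2, which makes acetyl-CoA from acetate (1.03 ± 0.14), and the elongase Elovl7 (2.00 ± 0.39). With the combination 7 were higher and 13 lower in MOLM-13 (54.1%, against 48.9%), with ME1, malic enzyme, at -1.79 ± 0.11, and 8 were higher and 16 lower in the mouse (64.9%, against 64.7%), with Elovl7 at 3.29 ± 0.39, Acss2 at 2.43 ± 0.14 and the citrate carrier Slc25a1 at -1.76 ± 0.20. MBTPS2, a protease that cuts SREBP, was lower with the combination in both (-0.68 ± 0.10 and -0.69 ± 0.17). With EPZ004777 6 were higher and 5 lower in MOLM-13 (29.7%, against 27.7%) and 2 higher and 1 lower in the mouse. In SEM the numbers higher and lower were 0 and 3, 6 and 3, and 6 and 6 with EPZ004777, MI-2-2 and the combination (8.11%, 24.3% and 32.4%, against 8.78%, 17.8% and 29.6% of all genes). In RS4;11 they were 1 and 1, 2 and 1, and 4 and 6 (5.41%, 8.11% and 27%, against 6.63%, 12.6% and 23.5%). In REH 1 was higher and 2 were lower with EPZ004777 (8.11%, against 4.11%), and none was called by limma with the other treatments.

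The sterol exporters under liver X receptor control were higher with MI-2-2 and the combination in MOLM-13. There ABCG1 read 3.61, 4.12 and 3.47 with DMSO, 5.75, 6.17 and 6.85 with EPZ004777, 11.97, 11.75 and 11.74 with MI-2-2 and 12.55, 12.51 and 12.59 with the combination. Its DMSO values were below the median of the arrays, so no size of change is given. ABCA1 read 8.14, 7.77 and 8.14 with DMSO, 12.38, 12.51 and 12.49 with MI-2-2 and 12.73, 12.81 and 12.73 with the combination. ABCA1 rose by 4.44 ± 0.12 with MI-2-2 (limma adjusted p = 1.1e-08), and LPCAT3, a further target, rose by 0.59 ± 0.06. In the mouse cells none of the 4 targets listed was called with MI-2-2. Abcg1 changed by 0.08 ± 0.53. Abca1, below the array median with DMSO (4.33, 3.95 and 4.57) and MI-2-2 (5.34, 5.13 and 5.37), read 8.87, 7.79 and 7.71 with the combination. Both exporters also rose in RS4;11 with MI-2-2 (ABCA1 2.73 ± 0.12, ABCG1 3.48 ± 0.16) and ABCA1 in SEM (2.84 ± 0.08), lines in which the sterol enzymes had medians of -0.08 and 0.18. In REH ABCG1 rose by 0.74 ± 0.14 with each compound and 1.31 ± 0.14 with the combination.

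The share of myeloid markers called lay above that of all genes in each comparison with DMSO except MI-2-2 in REH. In MOLM-13 4, 4 and 6 of 7 measured myeloid markers rose with EPZ004777, MI-2-2 and the combination, and 1 fell with MI-2-2 (57.1%, 71.4% and 85.7% called, against 27.7%, 18.5% and 48.9% of all genes). Their mean log2 signal was 11.6 to 11.7 with DMSO, 12.4 with EPZ004777, 11.78 to 11.99 with MI-2-2 and 12.7 with the combination. In the mouse cells 2, 2 and 5 of 8 rose and 2 fell with the combination (25%, 25% and 87.5%, against 5.6%, 5.26% and 64.7%), and the mean signal was 10.47 to 11.50, 11.4 to 11.9, 11.6 to 11.7 and 12.7 to 12.8. With MI-2-2 the mean lay above the DMSO arrays in both models, narrowly in the mouse (from 11.60, against up to 11.50 with DMSO). In SEM 1, 4 and 5 of 6 rose and 1 fell with the combination (16.7%, 66.7% and 100%, against 8.78%, 17.8% and 29.6%). In RS4;11 3 of 6 rose with each treatment and 1 fell with MI-2-2 and with the combination (50%, 66.7% and 66.7%, against 6.63%, 12.6% and 23.5%), and in REH none of 5 rose and 1, 0 and 2 fell (20%, 0% and 40%, against 4.11%, 1.34% and 7.49%).

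Single markers of other cell types moved as well. CD3D, part of the T cell receptor complex and the only 1 of 3 T cell markers that passed the filter in MOLM-13, read 9.20, 9.56 and 9.55 with DMSO, 10.99, 10.77 and 11.04 with EPZ004777, 9.33, 9.45 and 9.29 with MI-2-2 and 11.15, 11.34 and 11.12 with the combination. In the mouse Cd3d, below the array median with DMSO, read 8.60, 7.23 and 7.25 with the combination, where Cd2 did not pass (0.02 ± 0.13). Of the non-haematopoietic markers, the collagen gene Col1a1 read 5.25, 4.64 and 5.07 in the mouse with DMSO, 6.47, 6.74 and 6.69 with MI-2-2 and 10.95, 11.46 and 11.69 with the combination, while Epcam, an epithelial gene, fell with the combination (-0.45 ± 0.10). COL1A1 was also called higher in RS4;11 with each treatment and in SEM with MI-2-2 and the combination. In REH it was called higher with EPZ004777 and the combination, and in MOLM-13 with none. The 2 non-haematopoietic markers measured in SEM averaged 4.41 to 4.69 with DMSO, below the array medians, so no size is given there. Over the measured B precursor markers the mean signal in the mouse was 7.37 to 7.46 with DMSO and 6.51 to 6.85 with the combination. Of these, 3 of 5 were called lower, where 36.2% of all genes were. The part of the marker shifts in the lipid gene results was not tested.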

How the data were processed

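RNA from 56 cultures was measured on Affymetrix arrays. The authors extracted total RNA with Qiagen RNeasy columns and amplified it with a Nugen Ovation kit, per the labels' protocols. Deposited were log2 signals, 1 per probe set and array, made with RMA from the affy package in R 3.0.2, per the submitters' processing notes. RMA sets the arrays of a run to a common distribution, so changes are relative to the other genes. The replicates are called biological in the design text, and p-values measure the spread between these samples. With 2 or 3 arrays per group their number limits the precision.

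Of the probe sets annotated to a gene's symbol alone, the one brightest on average in that fit was used. It had to exceed the array's 40th percentile on 2 or more arrays. The 4 groups of a model were fitted together with limma 3.58.1 in R 4.3.3, with Benjamini-Hochberg adjustment over all genes. REH was set against RS4;11 and SEM in 1 fit of their arrays. The code was tested on simulated data. Alternatives were no filter, quantile normalization, the mean of probe sets, probe sets ending in _at alone, the replicate number as a block, 1 fit of all human arrays, an actin 3′ to 5′ covariate, fits of 1 treatment with DMSO, and leaving out arrays.

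Values per array are given for the called genes with the largest changes in each model and for HMGCS1, SQLE, INSIG1, FASN, LPIN1 and SREBF2. Of the other lipid genes, up to 3 called per list and treatment are named. The genes, lists and rules were chosen with earlier results of these data known. Promoter windows are those of RefSeq on GRCh38.p14, and mouse windows were not used here.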

Additional observations from a re-analysis of the deposited data

Results flagged for a closer look

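Effects that differed between cell models are gathered here with their sizes. For RS4;11 and SEM against REH, where the difference itself was tested in limma, 5 genes passed. PMVK differed by -0.42 with EPZ004777, from a mean change of -0.04 in RS4;11 and SEM and a change of 0.38 in REH, none of them called within its own line. ELOVL6 differed by 0.44 with MI-2-2. With the combination LPIN1 differed by 0.44, MSMO1 by -0.32 and TMEM97 by -0.22.

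For MOLM-13 and the mouse cells, all treated arrays moved below the DMSO arrays in MOLM-13 and above them in the mouse for the genes that follow, and the difference was not tested. With MI-2-2 the mouse change minus the MOLM-13 change was 1.76 for HSD17B7, 1.75 for SQLE, 1.65 for HMGCS1, 1.47 for MSMO1, 1.44 for SC5D and 1.24 for NSDHL. With the combination it was 2.92 for SQLE, 2.55 for HMGCS1, 2.51 for HSD17B7, 2.47 for LSS, 2.07 for NSDHL, 1.78 for PMVK, 1.60 for TM7SF2, 1.53 for LPIN1, 1.52 for MSMO1, 1.39 for SC5D and 0.79 for INSIG1. All of these are log2 differences. Their causes were not tested. Species, array type, culture medium and cell of origin differ together between these models and cannot be told apart.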

How the results depend on the processing

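The 104 called changes against DMSO and between lines were recomputed under 2020 settings in all: 1700 kept direction and call, 315 kept direction but lost the call, and 5 changed sign. Those 5 were FADS2 in SEM with MI-2-2 on probe sets ending in _at alone (-0.10), LPIN1 in SEM with MI-2-2 with the actin covariate (-0.017), IDI1 in MOLM-13 with the combination on _at probe sets alone (0.54), SC5D in the mouse combination with the mean of probe sets (-0.14), and FADS1 in the mouse combination without replicates 2 and 3 of that group (0.13). The cause was not tested except where the setting itself leaves out arrays or probe sets.

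Counts of called genes that moved by over 1.5 times are given as reported and then under the setting. Without the filter on dim probe sets they were 2 and 1 for RS4;11 with MI-2-2, 4 and 2 for RS4;11 with the combination, 6 and 3 for MOLM-13 with EPZ004777, and 1 and 0 for the line difference with MI-2-2. With quantile normalization they were 5 and 8 for SEM with MI-2-2, and 0 and 1 for REH with EPZ004777 and with the combination. With the mean of probe sets they were 0 and 1 for RS4;11 with EPZ004777, 4 and 9 for RS4;11 with the combination, 5 and 8 and 6 and 10 for SEM with MI-2-2 and the combination, 0 and 1 and 0 and 2 for REH with EPZ004777 and the combination, 11 and 7 for MOLM-13 with MI-2-2, and 1 and 3 and 3 and 6 for the line difference with MI-2-2 and the combination. On _at probe sets alone, with fewer genes measured, they were 2 and 1 for RS4;11 with MI-2-2, 5 and 3 for SEM with MI-2-2, 11 and 6 and 19 and 12 for MOLM-13 with MI-2-2 and the combination, and 1 and 0 for the line difference with EPZ004777. In 1 fit of all human arrays they were 2 and 1 for RS4;11 with MI-2-2, 1 and 0 for SEM with EPZ004777, 0 and 1, 0 and 3, and 0 and 3 for REH with EPZ004777, MI-2-2 and the combination, and 6 and 10 for MOLM-13 with EPZ004777. With the actin covariate all 3 SEM counts (1, 5 and 6) were 0. Without REH DMSO replicates 1 and 3 the REH combination count was 2, and without mouse combination replicates 2 and 3 the mouse EPZ004777 count was 15. With only the treated group and DMSO in the fit they were 0 and 1, 2 and 0, and 4 and 2 for the 3 treatments of RS4;11, 1 and 0 and 5 and 3 for SEM with EPZ004777 and MI-2-2, 11 and 4 for MOLM-13 with MI-2-2, and 9 and 14 for the mouse with EPZ004777.

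In the human lines no consistent pairing by replicate number was seen, though groups of 2 or 3 arrays cannot exclude one. Correlations of same-numbered deviations ran from -0.48 to 0.48 over all models. In RS4;11, SEM, REH, MOLM-13 and the mouse, 2 of 15, 2 of 10, 5 of 18, 3 of 18 and 9 of 18 pairs exceeded 0.1. The median of same-numbered pairs was negative in each human line. In the mouse it was 0.10, against -0.07 for other pairs. With the replicate block the counts were 1 and 2 for RS4;11 with MI-2-2 and the combination, 0 and 1 for SEM with EPZ004777 and MI-2-2, and 0 for the line difference with MI-2-2. The other counts stayed within 1.5 times of those reported (4, 9 and 20 in MOLM-13 and 6, 16 and 19 in the mouse).

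With 1 array left out at a time, the counts with EPZ004777, MI-2-2 and the combination ran over 0 to 1, 0 to 2 and 1 to 5 in RS4;11, 0 to 1, 1 to 5 and 3 to 7 in SEM, 0 to 1, 0 to 1 and 0 to 3 in REH, 2 to 16, 5 to 14 and 18 to 20 in MOLM-13, 3 to 15, 13 to 25 and 18 to 21 in the mouse, and 0 to 2, 0 to 6 and 2 to 6 for the line difference.

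Arrays give no molecule counts, so no floor can be set on a dim signal. Groups of 2 arrays in RS4;11 and SEM leave wide errors, and a gene that missed the threshold there is not shown to be unchanged. Levels of different genes were not compared, since probe sets differ in brightness.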
